A study of Rattus norvegicus with 20 samples.

Results

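The 5 genes described here encode aldo-keto reductases of the rat Akr7a and Akr1b subfamilies: Akr7a2, Akr7a3, Akr1b1, Akr1b7 and Akr1b8. They were taken by name from the annotation of the array, on which 6 of 31042 probe sets are assigned to them, and they are 5 of the 14217 genes analysed. Their levels were read in the livers of male rats of the Harlan Sprague-Dawley strain given triphenyl phosphate by gavage. This aryl phosphate ester serves as a flame retardant and as a plasticiser. The animals received 4 daily doses in corn oil, and liver was taken on day 5. The vehicle group, given corn oil alone, held 5 arrays, and the groups given 55, 110, 220, 440 and 881 mg/kg held 3 arrays each, all from rats of the same strain and sex. The age of the rats is not given in the sources used here, and the design text states the dose labelled 440 mg/kg as 441 mg/kg.

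The genes were chosen from results in which their levels at 881 mg/kg and in vehicle were already known. For them that difference is therefore given as a description with no test, whereas the 4 lower doses were tested. Every comparison uses the same vehicle arrays, so the doses are not independent of each other in this respect. The labels' protocol assigns 3 rats to a group, the vehicle group has 5 arrays, and no label ties an array to an animal. The p-values therefore reflect only how far these arrays differed among themselves, and part of that spread may be technical.

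Aldo-keto reductases are NADPH-dependent enzymes of the cytosol that reduce aldehydes and ketones to alcohols. In liver they act on sugars, steroids, bile acid precursors, products of lipid peroxidation and carbonyls made from foreign compounds. Akr7a3 reduces the dialdehyde of aflatoxin and is known in rat liver as an enzyme that antioxidant chemicals induce. Akr7a2 is a close relative that reduces succinic semialdehyde. Akr1b1 is aldose reductase, the first enzyme of the polyol pathway, which turns glucose into sorbitol. Akr1b7 is best known from the vas deferens and the adrenal cortex, where it reduces an aldehyde released during steroid synthesis. Akr1b8 was first described as a protein induced by fibroblast growth factor and reduces lipid-derived aldehydes.

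In the RefSeq gene order of assembly GRCr8, Akr7a2 and Akr7a3 are neighbours on chromosome 5. Akr1b1, Akr1b8, Akr1b10 and Akr1b7 follow each other on chromosome 4. RefSeq also lists 5 pseudogenes named for Akr1b1 and 5 named for Akr1b8. How far the probes of one gene also bind RNA of a near copy was not tested here. The 300 bases around the start of 3 of the genes are printed because the neighbours Akr7a2 and Akr7a3 both rose with dose, whereas Akr1b7 had a different dose pattern. Each window runs from 250 bases before to 50 bases after the RefSeq start on the plus strand, at chr5:156835339-156835638 for Akr7a2, chr5:156876471-156876770 for Akr7a3 and chr4:64043720-64044019 for Akr1b7. Capitals mark letters that match a searched motif on either strand.
Akr7a2: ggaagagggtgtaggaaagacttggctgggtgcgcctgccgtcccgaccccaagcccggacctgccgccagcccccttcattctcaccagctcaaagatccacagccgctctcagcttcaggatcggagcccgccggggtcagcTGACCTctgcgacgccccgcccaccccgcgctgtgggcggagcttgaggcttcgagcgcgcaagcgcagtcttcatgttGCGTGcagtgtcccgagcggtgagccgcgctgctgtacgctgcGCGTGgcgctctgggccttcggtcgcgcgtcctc
Akr7a3: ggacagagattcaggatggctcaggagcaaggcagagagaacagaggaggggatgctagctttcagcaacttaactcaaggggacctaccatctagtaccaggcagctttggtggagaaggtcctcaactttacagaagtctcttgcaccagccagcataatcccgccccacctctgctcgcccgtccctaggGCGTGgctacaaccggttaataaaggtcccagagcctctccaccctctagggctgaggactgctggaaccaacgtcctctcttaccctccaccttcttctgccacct
Akr1b7: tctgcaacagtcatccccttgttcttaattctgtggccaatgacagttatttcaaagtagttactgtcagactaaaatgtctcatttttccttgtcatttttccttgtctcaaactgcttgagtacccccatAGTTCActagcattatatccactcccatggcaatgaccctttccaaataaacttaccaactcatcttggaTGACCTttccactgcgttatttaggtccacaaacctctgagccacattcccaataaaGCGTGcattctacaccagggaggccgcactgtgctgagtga
The motifs were TGACNNNGC for the core of the antioxidant response element, GCGTG for the core of the xenobiotic response element, and the nuclear receptor half-sites AGGTCA and AGTTCA, on both strands. No match overlapped another. TGACNNNGC was in none of the 4 windows held for these genes and in 12.1% of all 33469 windows. GCGTG occurred 2 times in the Akr7a2 window and 1 time each in those of Akr7a3 and Akr1b7, and in 29.7% of all windows. AGGTCA, read on the minus strand as TGACCT, was in the windows of Akr7a2 and Akr1b7 and in 16.2% of all windows. AGTTCA was in the window of Akr1b7 alone among the 4 and in 14.5% of all windows. The window of Akr1b8 (chr4:63964171-63964470) held none of the 4 motifs. The GC content was 68.7% for Akr7a2, 55.7% for Akr7a3, 50.3% for Akr1b8 and 43.0% for Akr1b7, against a median of 51.7% over all windows. A match is a run of letters and does not show that a factor binds there.

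One array stood apart from the rest. On 881 mg/kg replicate 2 the 3' control probe set of Gapdh exceeded the 5' one by 5.24 (log2), whereas this difference was 0.81 to 1.64 on the remaining 19 arrays. The same difference for beta-actin was 3.47, against 1.67 to 2.72. The array's median correlation with the others was 0.980, against 0.990 to 0.994. For most differences at 881 mg/kg the value without this array is given as well. The hepatocyte marker Alb, the gene of serum albumin, was high on every array, between 15.30 and 15.36. Tat, of the same marker list, varied more, from 8.92 to 11.22.

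Akr7a3 rose at 220 and 440 mg/kg and showed the larger response of the Akr7a pair. All levels are log2 values as deposited. The vehicle arrays read 11.45, 11.05, 11.51, 11.39 and 11.60, with a mean of 11.40 ± 0.21 (SD, n = 5). The 55 mg/kg arrays read 11.37, 12.19 and 12.73. The 110 mg/kg arrays read 11.44, 12.42 and 12.48. In each of these groups 2 arrays lay above all vehicle arrays and 1 lay among them. Those of the 220 mg/kg group read 12.80, 11.91 and 12.94. Levels reached 12.74, 13.06 and 13.52 at 440 mg/kg, and 13.11, 13.46 and 13.20 at 881 mg/kg. From 220 mg/kg upward no dosed array overlapped the vehicle range.

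The Akr7a3 change against vehicle was 0.70 ± 0.29 at 55 mg/kg and 0.71 ± 0.29 at 110 mg/kg (log2 ± SE). These differences had limma adjusted p-values of 0.227 and 0.206 and were not called at the threshold of 0.05. The change at 220 mg/kg was 1.15 ± 0.29, or 2.22-fold (adjusted p = 0.0306). That call was lost without 220 mg/kg replicate 1 (adjusted p = 0.121) or replicate 3 (0.156), and without vehicle replicate 2 (0.0735) or replicate 4 (0.0623). It was also lost when limma's eBayes step used its trend and robust options (0.0564). Over the 29 alternatives the adjusted p ranged from 0.000975 to 0.156. The change at 440 mg/kg was 1.71 ± 0.29, or 3.27-fold (adjusted p = 0.000758), and it was called under all 29 alternatives, with adjusted p from 0.000111 to 0.00895. The 881 mg/kg mean was 1.86 above vehicle, a 3.63-fold difference, and 0.15 ± 0.32 above the 440 mg/kg mean. In the order of group means each Akr7a3 group overlapped the next, so the neighbouring doses did not separate array by array.

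Akr7a2 changed less than Akr7a3 but varied less between arrays. The vehicle arrays read 11.60, 11.57, 11.66, 11.53 and 11.65, a mean of 11.60 ± 0.051 (SD, n = 5). Only 5.8% of all genes had a smaller SD among the vehicle arrays. The 55 mg/kg arrays read 11.81, 11.99 and 12.01, and those at 110 mg/kg 11.77, 11.74 and 11.92. The 220 mg/kg arrays read 12.04, 11.94 and 11.94. All 9 of these arrays lay above the highest vehicle array. The 440 mg/kg arrays read 12.10, 12.09 and 12.30, and those at 881 mg/kg 12.07, 12.34 and 12.28, so each dosed array of the study was above every vehicle array.

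Akr7a2 rose by 0.33 ± 0.078 at 55 mg/kg, or 1.26-fold (adjusted p = 0.0264). It was the lowest dose at which any of the 5 genes was called. This call was lost without 55 mg/kg replicate 2 (adjusted p = 0.128) or replicate 3 (0.131), and without vehicle replicate 2 (0.0588) or replicate 4 (0.0666). It was also lost when the replicate number was fitted as a block (0.0640). Over the 29 alternatives its adjusted p ranged from 0.00579 to 0.131. At 110 mg/kg the difference of 0.21 ± 0.078 was not called (adjusted p = 0.168). Akr7a2 rose by 0.37 ± 0.078 at 220 mg/kg, or 1.29-fold (adjusted p = 0.0120). Leaving out 220 mg/kg replicate 1 ended that call (0.0598), and the other alternatives gave 0.00182 or more. Its rise at 440 mg/kg was 0.56 ± 0.078, or 1.47-fold (adjusted p = 0.000137, and 3.20e-05 to 0.00231 under the 29 alternatives). The 881 mg/kg mean was 0.63 above vehicle, a 1.55-fold difference, and 0.07 ± 0.087 above the 440 mg/kg mean. In the order of group means, vehicle stood apart from 110 mg/kg and 220 mg/kg stood apart from 440 mg/kg, and the other neighbours overlapped.

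**Figure D1:**
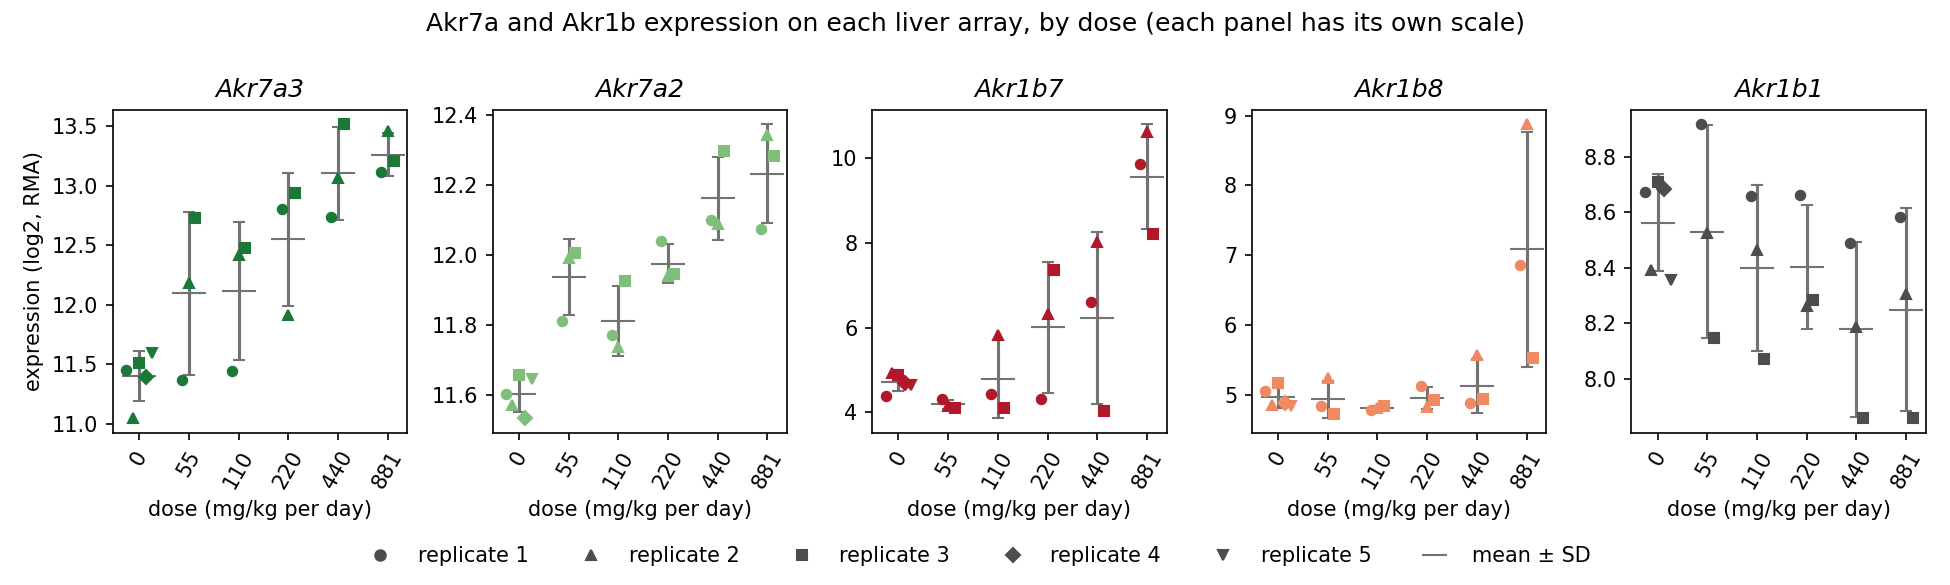
Log2 expression (RMA) of the 5 genes on each of the 20 liver arrays (vertical axis, with a scale of its own in each panel) by daily dose in mg/kg (horizontal axis). Symbols give the replicate number, and grey marks give the group mean with 1 SD. Akr7a2 arrays of every dosed group sit above the vehicle arrays. Akr1b7 arrays at 220 and 440 mg/kg spread from 4.02 to 8.03, and all 3 of its 881 mg/kg arrays sit at 8.21 or higher.

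Akr1b7 showed the largest difference of the 5 genes between 881 mg/kg and vehicle and the widest spread at the middle doses. The vehicle arrays read 4.39, 4.92, 4.87, 4.70 and 4.64, a mean of 4.70 ± 0.21 (SD, n = 5). At 55 mg/kg they read 4.31, 4.16 and 4.10, all below the lowest vehicle array. At 110 mg/kg they read 4.43, 5.83 and 4.10, with 1 array above the vehicle range and 1 below it. The 220 mg/kg arrays read 4.31, 6.33 and 7.37. The 440 mg/kg arrays read 6.60, 8.03 and 4.02. In each of these groups 2 arrays lay far above the vehicle range and 1 lay below it. At 881 mg/kg all arrays were high, at 9.86, 10.62 and 8.21.

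The Akr1b7 difference from vehicle was -0.52 ± 0.72 at 55 mg/kg and 0.08 ± 0.72 at 110 mg/kg, and neither was called (adjusted p = 0.800 and 0.972). When the 55 mg/kg and vehicle arrays were fitted alone, without the spread of the higher doses, the 55 mg/kg difference passed (adjusted p = 0.0405). Over all 29 alternatives its adjusted p ranged from that value to 0.880. At 220 mg/kg the difference was 1.30 ± 0.72 (adjusted p = 0.392) and at 440 mg/kg 1.51 ± 0.72, or 2.85-fold (adjusted p = 0.193). Without 440 mg/kg replicate 3, the array at 4.02, the 440 mg/kg difference was 2.61 and was called (adjusted p = 0.0225). Without 220 mg/kg replicate 1 the 220 mg/kg difference reached 2.14 and stayed uncalled. The 881 mg/kg mean was 4.86 ± 0.72 above vehicle, a 29.0-fold difference, and 3.35 ± 0.80 above the 440 mg/kg mean. The 881 and 440 mg/kg arrays did not overlap, nor did the 55 mg/kg and vehicle arrays, while the 3 neighbouring pairs between them did.

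Akr1b8 stayed near its vehicle level up to 440 mg/kg. The vehicle arrays read 5.06, 4.87, 5.18, 4.89 and 4.84, a mean of 4.97 ± 0.15 (SD, n = 5). The 55 mg/kg arrays read 4.85, 5.24 and 4.74, and the 110 mg/kg arrays 4.79, 4.82 and 4.85. The 220 mg/kg arrays read 5.13, 4.83 and 4.93. At 440 mg/kg replicate 2 read 5.57, above all vehicle arrays, and the other arrays read 4.88 and 4.94. At 881 mg/kg the arrays read 6.86, 8.87 and 5.53, all above the vehicle arrays. The differences at the 4 lower doses lay between -0.15 and 0.16, each with an SE of 0.42, and the adjusted p was 0.852 at 440 mg/kg. The sign at 440 mg/kg rested on replicate 2, without which the difference was -0.06. The 881 mg/kg mean was 2.12 ± 0.42 above vehicle, a 4.34-fold difference, and 1.22 above it without 881 mg/kg replicate 2. Its lowest array (5.53) read below the highest 440 mg/kg array (5.57).

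Akr1b1 showed no called change at any tested dose. The vehicle arrays read 8.67, 8.39, 8.71, 8.68 and 8.36, a mean of 8.56 ± 0.17 (SD, n = 5). The 55 mg/kg arrays read 8.92, 8.53 and 8.15, and the 110 mg/kg arrays 8.66, 8.46 and 8.07. The 220 mg/kg arrays read 8.66, 8.26 and 8.28. The 440 mg/kg arrays read 8.49, 8.19 and 7.86, and the 881 mg/kg arrays 8.58, 8.30 and 7.86. Every dosed group overlapped the vehicle arrays. The difference at 440 mg/kg was -0.38 ± 0.19 (adjusted p = 0.209) and that at 881 mg/kg was -0.31 ± 0.19. The second probe set named for Akr1b1 had group means between 6.12 and 6.24 and differences of -0.07 to 0.05 at all 5 doses, each with an SE of 0.086. The lower 440 mg/kg values of the first probe set were thus not seen on the second, which read 0.0018 above vehicle. The second probe set read well below the first in every group, and whether it could show a fall of that size was not tested.

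Counted over the 5 genes, 1 rose at 55 mg/kg (Akr7a2), where 1.93% of all genes rose. None was called at 110 mg/kg by limma, where 2.36% of all genes rose. There 2 of the 5 had an unadjusted p under 0.05, as did 16.7% of all genes. Akr7a2 and Akr7a3, 2 of the 5, rose at 220 mg/kg, against 2.25% of all genes, and again at 440 mg/kg, against 6.76%. None of the 5 fell at 55, 110, 220 or 440 mg/kg, where 0.879%, 1.24%, 1.18% and 4.28% of all genes fell. All arrays of a group lay above all vehicle arrays for 1 of the 5 at 55 mg/kg (9.33% of all genes), 1 at 110 mg/kg (7.62%), 2 at 220 mg/kg (7.95%) and 2 at 440 mg/kg (12.8%). Akr1b7 at 55 mg/kg was the single case of all arrays below, which held for 4.26% of all genes (5.28%, 5.02% and 8.4% at 110, 220 and 440 mg/kg). At 881 mg/kg all arrays of 4 of the 5 genes lay above vehicle, as did those of 13.4% of all genes, and those of none lay below, as for 8.31% of all genes. Nothing is read from this count because the genes were chosen on that contrast.

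**Figure D2:**
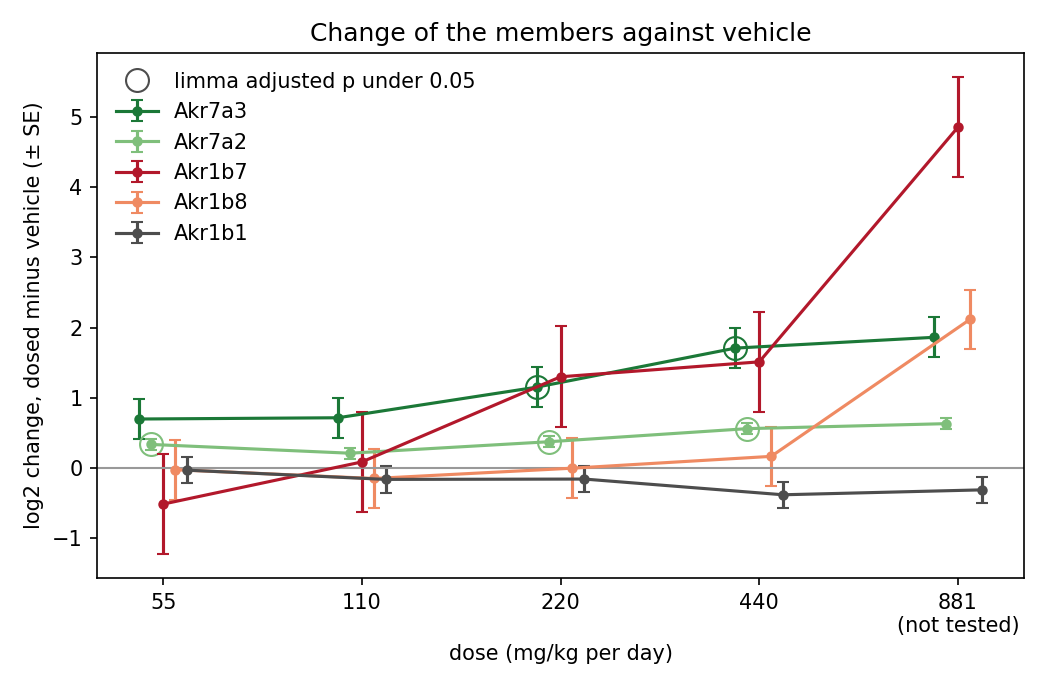
Log2 change against vehicle with its SE from the limma model (vertical axis) for the 5 genes at each daily dose in mg/kg (horizontal axis). Large open circles mark an adjusted p under 0.05, and the 881 mg/kg values were not tested. Akr7a3 reaches 1.71 at 440 mg/kg and 1.86 at 881 mg/kg, whereas Akr1b8 lies near 0 up to 440 mg/kg and at 2.12 at 881 mg/kg.

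The trend over the vehicle and the 4 lower doses leaves out the 881 mg/kg arrays. It was fitted over 17 arrays with the dose step, from 0 to 4, as a number. Akr7a3 rose by 0.39 ± 0.065 per step (adjusted p = 0.000530, and 0.000123 to 0.00280 under 28 alternatives). Akr7a2 rose by 0.12 ± 0.020 per step (adjusted p = 0.000476, and 0.000171 to 0.00513). Among all genes, 7.6% rose and 5.26% fell in this trend. The slope of Akr1b7 was 0.44 ± 0.16 (adjusted p = 0.0695). Leaving out 440 mg/kg replicate 3 made it a call (0.59, adjusted p = 0.0125), as did leaving out 220 mg/kg replicate 1 (0.49, adjusted p = 0.0420). The slopes of Akr1b1 (-0.09 ± 0.037, adjusted p = 0.132) and Akr1b8 (0.03 ± 0.032, adjusted p = 0.628) were not called. That of Akr1b1 was called when the replicate number was fitted as a block (-0.10, adjusted p = 0.0433). The trend of the Akr7a pair was thus present without the highest dose.

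The 881 mg/kg arrays differed from each other most for Akr1b8 and Akr1b7. Akr1b7 on replicate 1 was 5.15 above the vehicle mean, which is 35.6-fold. On replicate 2 it was 5.92 above, or 60.4-fold, and on replicate 3 it was 3.51 above, or 11.4-fold. Akr1b8 was 1.89 above the vehicle mean on replicate 1 (3.70-fold), 3.91 above on replicate 2 (15.0-fold) and 0.56 above on replicate 3 (1.47-fold). Both genes thus read highest on replicate 2 and lowest on replicate 3. Akr7a3 was 1.72, 2.06 and 1.81 above its vehicle mean on replicates 1, 2 and 3, and Akr7a2 was 0.47, 0.74 and 0.68 above. Akr1b1 differed by 0.02, -0.26 and -0.70.

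Replicate 2 is the array with the large 3' to 5' differences given above, and the part of RNA quality in its readings was not tested. Without that array the 881 mg/kg mean was 4.33 above vehicle for Akr1b7, 1.22 for Akr1b8, 1.76 for Akr7a3, 0.58 for Akr7a2 and -0.34 for Akr1b1. Without replicate 3 the differences of Akr1b7 and Akr1b8 were 5.53 and 2.90. A fit with the beta-actin difference as covariate gave 4.44 and 1.60. The Akr7a differences at 881 mg/kg therefore moved little with the array left out, and the difference of Akr1b8 moved the most.

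**Figure D3:**
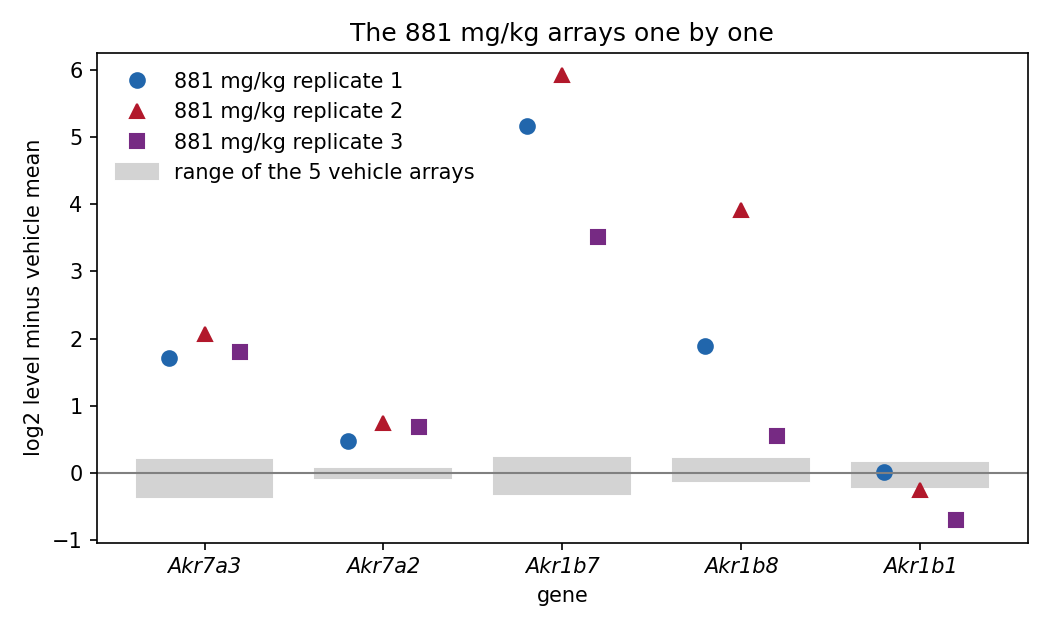
Log2 level minus the vehicle mean (vertical axis) for the 5 genes (horizontal axis) on each of the 3 arrays of the 881 mg/kg group. Grey boxes span the 5 vehicle arrays. The Akr7a3 arrays lie between 1.72 and 2.06, while the Akr1b8 arrays lie at 0.56, 1.89 and 3.91.

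The spread within dose groups is given here as a description, with no test between genes. The SD of Akr1b7 was 0.21 in the vehicle group, 0.92 at 110 mg/kg, 1.55 at 220 mg/kg and 2.03 at 440 mg/kg. At 110 mg/kg 99.8% of all genes had a smaller SD. The SD of Akr7a3 was 0.69 at 55 mg/kg, 0.58 at 110 mg/kg, 0.56 at 220 mg/kg and 0.39 at 440 mg/kg, then 0.18 at 881 mg/kg. Smaller SDs were found in 99.6% of genes at 55 mg/kg and in 59.5% at 881 mg/kg. The SD of Akr1b8 was 0.38 or less in every group up to 440 mg/kg and 1.69 at 881 mg/kg. That of Akr1b1 lay between 0.17 and 0.38 in all 6 groups, and that of Akr7a2 between 0.051 and 0.14.

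Pairs of the genes were compared by their deviations from the group means over the 20 arrays. This removes the dose groups but not what arrays of the same replicate number share. Akr1b1, for instance, read highest on replicate 1 in every dosed group. The permutations did not keep these numbers together, and their part in the relations was not tested. The strongest positive relation was that of Akr7a2 and Akr7a3, with Pearson's r of 0.61 and Spearman's rho of 0.66 (permutation within groups, p = 0.0145 and p = 0.0148). Over the 10 pairs the Benjamini-Hochberg adjusted values were 0.145 and 0.148, so the relation did not pass. Without the 2 arrays farthest from the median r was 0.61, and without the 881 mg/kg arrays it was 0.66. Akr1b1 and Akr7a2 deviated in opposite directions (r = -0.61, rho = -0.60, permutation p = 0.0422 and 0.0446, adjusted 0.203 and 0.192), which did not pass either. Akr1b7 and Akr1b8 had r of 0.44 and rho of 0.21 (permutation p = 0.132 and 0.492, adjusted 0.264 and 0.560). None of the 10 pairs passed the adjustment.

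**Figure D4:**
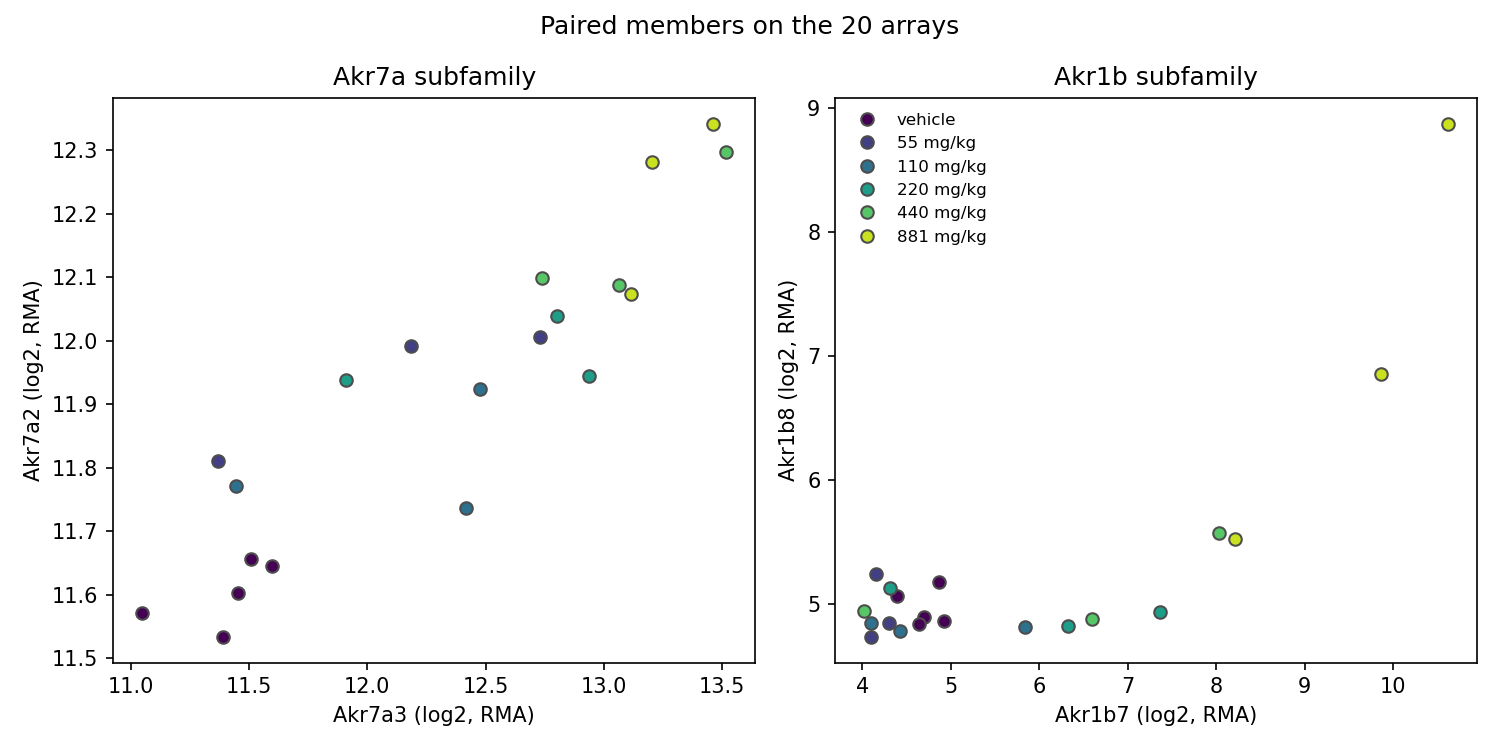
Log2 expression (RMA) of Akr7a2 against Akr7a3 (left) and of Akr1b8 against Akr1b7 (right) on the 20 arrays, coloured by dose. In the left panel the arrays of the higher doses lie toward high values of both genes. In the right panel the 440 mg/kg arrays reach 8.03 for Akr1b7 with Akr1b8 at 5.57 or lower. Of the 881 mg/kg arrays, those at 6.86 and 8.87 for Akr1b8 are high for both genes, and the third, at 8.21 for Akr1b7, reads 5.53 for Akr1b8.

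None of the other measured aldo-keto reductases changed by more than 1 (log2) in either direction. Of 18 listed, 13 were measured. None was called at 55, 110 or 220 mg/kg by limma, with 2, 1 and 0 at an unadjusted p under 0.05, which 15.9%, 16.7% and 16.6% of all genes had. At 440 mg/kg 2 rose and none fell, where 6.76% of all genes rose and 4.28% fell. An unadjusted p under 0.05 was seen for 5 of the 13 at that dose. The share over all genes was not counted there, so nothing is read from this number. In fits that left out replicate 1 or replicate 2 of the 440 mg/kg group, none rose and 1 fell there, and 1 fell also without the second 220 mg/kg array. Leaving out 440 mg/kg replicate 3 or vehicle replicate 1 left 1 that rose. At 881 mg/kg 3 rose and 1 fell, where 12.7% of all genes rose and 6.73% fell. Without 881 mg/kg replicate 2 the counts there were again 3 and 1, and the shares of all genes were 7.62% and 3.93%. Without 881 mg/kg replicate 1, 2 fell. With all arrays 6 of the 13 had an unadjusted p under 0.05 at 881 mg/kg, against 33.4% of all genes. The median change of the 13 genes was -0.08 at 440 mg/kg and -0.04 at 881 mg/kg, against 0.00 for all genes at both doses. Akr1e2, which reduces anhydrofructose, rose by 0.31 ± 0.079 at 440 mg/kg (adjusted p = 0.0152) and by 0.43 ± 0.079 at 881 mg/kg (adjusted p = 0.000972), or 0.46 without 881 mg/kg replicate 2. Its 440 mg/kg call was lost without 440 mg/kg replicate 1 (0.0556) or replicate 2 (0.0846). Akr1c14, the hydroxysteroid dehydrogenase abundant in rat liver, rose by 0.33 ± 0.094 at 440 mg/kg (adjusted p = 0.0273) and by 0.41 ± 0.094 at 881 mg/kg (adjusted p = 0.00506), or 0.52 without 881 mg/kg replicate 2. Its 440 mg/kg call was lost without any 1 of the 440 mg/kg arrays (0.0546 to 0.107) or without vehicle replicate 1 (0.0602), and its other probe sets were not called at 881 mg/kg (-0.14 and 0.17).

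Akr1b10, the neighbour of Akr1b7 and Akr1b8 on the chromosome, rose by 0.42 ± 0.13 at 881 mg/kg (adjusted p = 0.0355). Its arrays there read 4.54, 5.28 and 4.66, so replicate 2 was high for this gene as well. The second probe set of Akr1b10 was not called there (0.14 ± 0.095, adjusted p = 0.382). The call was lost without 881 mg/kg replicate 2 (change of 0.19, adjusted p = 0.302) and without vehicle replicate 2, 3 or 4 (0.0628 to 0.0745). Akr1c19 fell by 0.42 at 881 mg/kg (SE 0.13, adjusted p = 0.0302), and that call was lost without 881 mg/kg replicate 3 (0.133) or vehicle replicate 1, 2 or 4 (0.0574 to 0.0684). Without 881 mg/kg replicate 2 its change was -0.49. The change of Akr1a1, which reduces glucuronate, was 0.22 ± 0.21 at 440 mg/kg and -0.34 ± 0.21 at 881 mg/kg. That of Akr1d1, the 5-beta-reductase of bile acid synthesis, was 0.14 ± 0.11 and 0.30 ± 0.11. Akr1c1 changed by -0.79 ± 0.28 at 440 mg/kg and 0.27 ± 0.28 at 881 mg/kg, Akr1c15 by -0.71 ± 0.27 and -0.67 ± 0.27, and none of these values was called. Changes of Akr1c3, Akr1c13 and the channel subunits Kcnab1, Kcnab2 and Kcnab3 lay between -0.38 and 0.05 at these doses, also without a call. At 440 mg/kg all arrays of Akr1c1, Akr1c3 and Akr1c15 lay below every vehicle array, as did those of 8.4% of all genes. Those of Akr1c14 and Akr1e2 all lay above, as did those of 12.8% of all genes. At 881 mg/kg all arrays of Akr1c1, Akr1c14 and Akr1e2 lay above every vehicle array, as did those of 13.4% of all genes. Those of Akr1c19 all lay below there, as did those of 8.31% of all genes. In the trend up to 440 mg/kg Akr1c14 (0.08 ± 0.020 per step, adjusted p = 0.0175) and Akr1e2 (0.07 ± 0.017, adjusted p = 0.00662) rose.

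**Figure D5:**
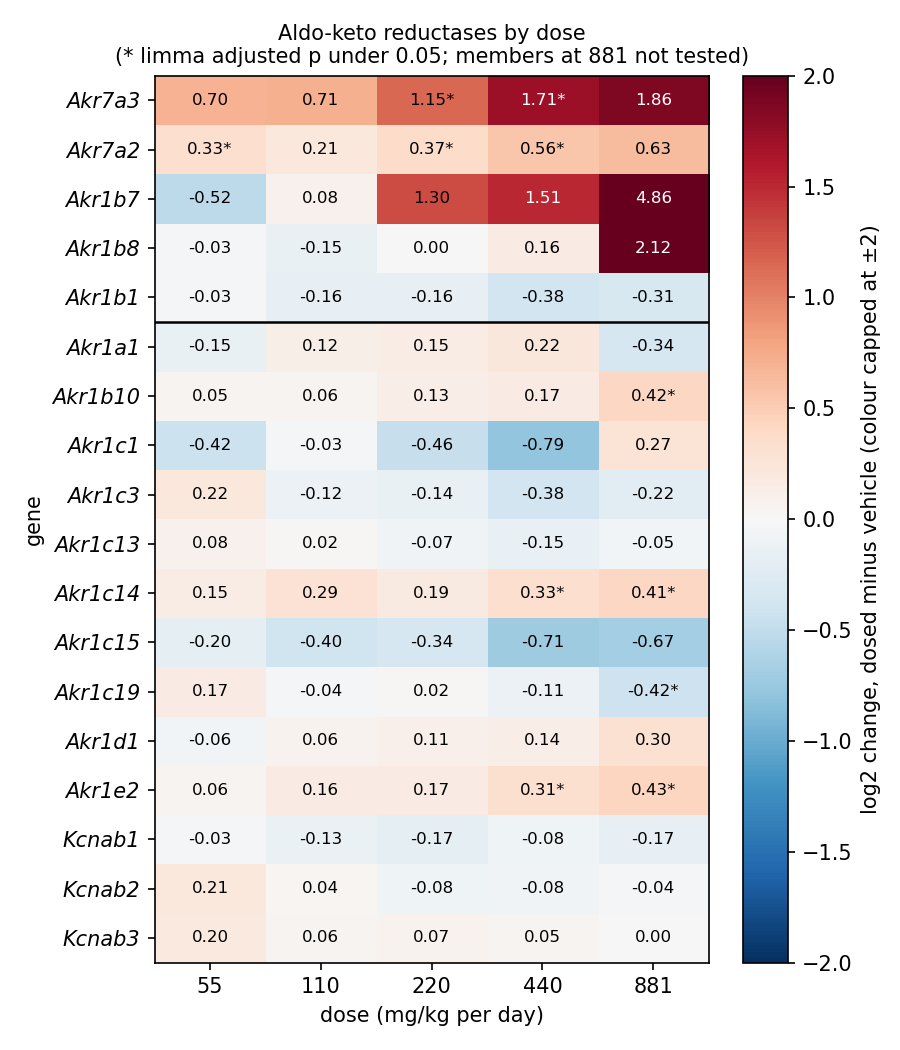
Log2 change against vehicle for the 5 genes (above the line) and the 13 other measured aldo-keto reductases (below it) at each daily dose in mg/kg, with the value written in each cell. Colours reach their limit at a change of 2, and an asterisk marks an adjusted p under 0.05 (the 881 mg/kg values of the 5 genes were not tested). No other measured aldo-keto reductase changed by more than 1 in either direction.

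The polyol and fructose genes that take up the product of aldose reductase are the pathway context of Akr1b1. Of 7 listed, 6 were measured, and 1 rose at 220 mg/kg and 1 at 440 mg/kg (2 without 110 mg/kg replicate 2), while 2 rose and 2 fell at 881 mg/kg. Among all genes 2.25%, 6.76% and 12.7% rose at 220, 440 and 881 mg/kg, and 6.73% fell at 881 mg/kg. The fructose transporter gene Slc2a5 was at 0.70 ± 0.19 at 55 mg/kg and 0.64 ± 0.19 at 110 mg/kg, which were not called (adjusted p = 0.0546 and 0.0724). It rose by 0.70 ± 0.19 at 220 mg/kg (adjusted p = 0.0494), a call that ended in 14 of the 20 fits that leave out 1 array (up to 0.309). Slc2a5 rose by 0.95 ± 0.19 at 440 mg/kg (adjusted p = 0.00311) and 0.93 ± 0.19 at 881 mg/kg (adjusted p = 0.00232), or 0.98 without 881 mg/kg replicate 2. Sorbitol dehydrogenase, Sord, rose by 0.47 ± 0.095 at 881 mg/kg (adjusted p = 0.00213), or 0.36 without that array. The ketohexokinase gene Khk (-0.40 ± 0.12, adjusted p = 0.0299) and the glycerate kinase gene Glyctk (-0.34 ± 0.084, adjusted p = 0.00865) fell at 881 mg/kg. Without 881 mg/kg replicate 2 both calls were lost (-0.19 and -0.26, adjusted p = 0.260 and 0.0691), as was that of Khk without 881 mg/kg replicate 1 (0.0695) or vehicle replicate 5 (0.0636).

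Several genes that handle reactive aldehydes and other carbonyls by other routes rose. Of 26 listed, 23 were measured, and 0, 2, 5, 6 and 8 rose at 55, 110, 220, 440 and 881 mg/kg, against 1.93%, 2.36%, 2.25%, 6.76% and 12.7% of all genes. At 55 mg/kg 4 of the 23 had an unadjusted p under 0.05, as did 15.9% of all genes. One of the 2 calls at 110 mg/kg was Aldh1a1 (0.61 ± 0.17, adjusted p = 0.0478), which was lost in 14 of the 20 fits that leave out 1 array (up to 0.224). At 881 mg/kg 1 of the 23 fell, against 6.73% of all genes. That count was 0 without 881 mg/kg replicate 2 (where 7 rose) and 2 without replicate 3. Without replicate 2, 7.62% of all genes rose at 881 mg/kg and 3.93% fell. The list's median stayed near 0 (-0.0013 at 440 mg/kg and -0.04 at 881 mg/kg), so the called genes were a minority. Gsta3, a glutathione transferase, rose by 2.21 ± 0.43 at 440 mg/kg (adjusted p = 0.00225) and 2.72 ± 0.43 at 881 mg/kg (adjusted p = 0.000246). Aldh1a1, which oxidises retinaldehyde and other aldehydes, rose by 1.37 ± 0.17 at 440 mg/kg (adjusted p = 3.29e-05) and 1.51 ± 0.17 at 881 mg/kg (adjusted p = 9.47e-06). Gsta4, which conjugates hydroxynonenal, rose by 1.03 ± 0.11 and 1.48 ± 0.11 (adjusted p = 5.73e-06 and 1.07e-07). Its call at 220 mg/kg (0.48 ± 0.11, adjusted p = 0.0168) was lost without any 1 of the 220 mg/kg arrays (0.0574 to 0.0639). The alcohol dehydrogenase gene Adh7 rose at 881 mg/kg (0.91 ± 0.20, adjusted p = 0.00375) and was at 0.08 ± 0.20 at 440 mg/kg (adjusted p = 0.855). With 881 mg/kg replicate 2 left out, the 881 mg/kg changes were 2.49 for Gsta3, 1.48 for Aldh1a1, 1.35 for Gsta4 and 0.65 for Adh7, all still called.

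Targets of 2 classes of liver regulators were counted beside the Akr genes. NRF2 drives the oxidative stress response, and CAR and PXR are nuclear receptors for foreign compounds. Of 19 measured NRF2 targets, 0, 1, 0, 6 and 11 rose at 55, 110, 220, 440 and 881 mg/kg, and 2 fell at 440 mg/kg. Of the latter 1 was left without 440 mg/kg replicate 1 or 3 or vehicle replicate 3 or 5. Among all genes 1.93%, 2.36%, 2.25%, 6.76% and 12.7% rose at these doses, and 4.28% fell at 440 mg/kg. Unadjusted p-values under 0.05 among the NRF2 targets numbered 2 at 55 mg/kg, 4 at 110 mg/kg and 6 at 220 mg/kg. All genes had shares of 15.9%, 16.7% and 16.6% there. At 440 mg/kg they numbered 14. No share over all genes was counted at that dose, so nothing is read from this number. The list's median was 0.33 at 440 mg/kg and 0.49 at 881 mg/kg, or 0.72 without 881 mg/kg replicate 2. Without that array 11 rose at 881 mg/kg as well, against 7.62% of all genes. Fitted without that array, 9 rose at 440 mg/kg, where the share of all genes in that fit was not counted. The quinone reductase gene Nqo1 rose by 1.40 ± 0.25 at 440 mg/kg and 1.79 ± 0.25 at 881 mg/kg, and the glutathione transferase Gstp1 by 1.56 ± 0.26 and 2.22 ± 0.26. Heme oxygenase, Hmox1, rose by 1.02 ± 0.17 and 1.74 ± 0.17, and the malic enzyme gene Me1 by 1.12 ± 0.24 and 1.81 ± 0.24. The adjusted p of these genes at the 2 doses ranged from 2.77e-06 to 0.00578, and the call of Me1 at 440 mg/kg was lost without 440 mg/kg replicate 3 (0.0510). These genes were named for the largest called changes at 881 mg/kg, so their values at that dose are descriptive. With 881 mg/kg replicate 2 left out, the 881 mg/kg changes were 1.63 for Nqo1, 2.24 for Gstp1, 1.51 for Hmox1 and 1.93 for Me1.

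Of 16 measured CAR and PXR targets, 4, 5, 7, 10 and 10 rose at 55, 110, 220, 440 and 881 mg/kg, and 1 fell at 110, 220 and 881 mg/kg. Among all genes 1.93%, 2.36%, 2.25%, 6.76% and 12.7% rose at these doses, and 1.24%, 1.18% and 6.73% fell at 110, 220 and 881 mg/kg. The list's median was 0.50 at 440 mg/kg and 0.61 at 881 mg/kg. Without 881 mg/kg replicate 2 its counts at 881 mg/kg were again 10 and 1 and its median 0.61, against shares of 7.62% and 3.93% of all genes. The carboxylesterase gene Ces2c rose by 1.18 at 55 mg/kg (adjusted p = 0.00451) and 4.03 at 881 mg/kg (3.79 without 881 mg/kg replicate 2). Abcb1a, an efflux pump gene, rose by 0.68 ± 0.15 at 55 mg/kg (adjusted p = 0.0200), but not without 55 mg/kg replicate 2 (0.107) or replicate 3 (0.0846). The conjugate transporter gene Abcc3 was at 0.41 ± 0.33 at 55 mg/kg (adjusted p = 0.609) and rose by 3.30 ± 0.33 at 440 mg/kg, and Alas1, the first enzyme of heme synthesis, rose by 1.46 ± 0.23 there. These lists and the Akr genes share the same arrays, and the counts show no link between single genes.

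The genes whose levels were most like those of Akr7a3 over the 20 arrays were Cyp3a23-3a1 (Pearson's r = 0.96), Aldh1a1 (0.94), Gstt3 (0.94), Gsta3 (0.93) and Abcc3 (0.93). Gsta3 and Abcc3 were also among the 5 most alike by deviations from the group means (r = 0.86 and 0.85), after Hspd1 (0.90), Rexo2 (0.90) and Chchd10 (0.89). For Akr1b7 the 5 most alike by level were Sult2a6 (r = 0.92), Smyd2 (0.87), Rnf14 (0.87), Apeg3 (0.86) and C2h4orf3 (0.86). By deviations they were Cyp2c7 (0.87), Arhgap8 (0.83), Zfr (0.80), Wee1 (0.79) and Bltp3a (0.79). No gene was in both lists for Akr1b7. These are the highest of 14217 correlations over arrays that share dose groups and replicate numbers, and they carry no p.

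Markers of other liver cell types fell in part at 440 and 881 mg/kg. Among all genes 4.28% fell at 440 mg/kg and 6.73% at 881 mg/kg, or 3.93% at 881 mg/kg without replicate 2 of that group. No share was counted for any other fit that leaves out 1 array, nor at 440 mg/kg without 881 mg/kg replicate 2. In bulk liver, fewer cells of a type and less RNA per cell cannot be told apart. Of 9 measured Kupffer cell and macrophage markers, 3 fell at 440 mg/kg and 8 at 881 mg/kg (4 without 881 mg/kg replicate 2 and 5 without replicate 3), and none rose. Leaving out 440 mg/kg replicate 3 left 1 at 440 mg/kg, and leaving out 881 mg/kg replicate 2 gave 5 there. Clec4f, a Kupffer cell lectin, fell at 881 mg/kg (-0.78 ± 0.16, adjusted p = 0.00282, and -0.78 without replicate 2). The mean level of the macrophage markers was 9.84 to 10.23 on the vehicle arrays, 9.10 to 9.61 at 440 mg/kg and 9.00 to 9.67 at 881 mg/kg. Of 11 stellate cell and fibroblast markers 6 fell at 440 mg/kg and 8 at 881 mg/kg (3 without 881 mg/kg replicate 2 and 5 without vehicle replicate 4), with mean levels of 7.75 to 8.21 in vehicle, 7.38 to 7.60 at 440 mg/kg and 7.28 to 7.72 at 881 mg/kg. The collagen gene Col3a1 fell at 881 mg/kg (-0.91 ± 0.20, adjusted p = 0.00369, and -0.68 without replicate 2). Of 8 endothelial markers 4 fell at 440 mg/kg and 3 at 881 mg/kg, with mean levels of 8.89 to 9.16, 8.14 to 8.93 and 8.37 to 8.93. The endothelial count at 440 mg/kg was 0 without 440 mg/kg replicate 2 or 3 or vehicle replicate 1, 2 or 4, 1 without vehicle replicate 3, and 7 without 440 mg/kg replicate 1. At 881 mg/kg it was 1 without 881 mg/kg replicate 2 or 3 or vehicle replicate 2. The part of these shifts in the Akr values was not tested.

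Of 9 hepatocyte markers 1 rose and 2 fell at 881 mg/kg, where 12.7% of all genes rose and 6.73% fell. The mean level of these markers was 13.60 to 13.73 in vehicle and 13.49 to 13.66 at 881 mg/kg. The 2 markers that fell became 0 or 1 when any 1 of 18 of the 20 arrays was left out. The apolipoprotein gene Apoa1 was the one that rose (0.34 ± 0.070, adjusted p = 0.00222, and 0.36 without 881 mg/kg replicate 2). Of 7 bile duct markers 1 rose at 440 and at 881 mg/kg, where 6.76% and 12.7% of all genes rose. The mean level of the 7 was 6.04 to 6.37 in vehicle and 6.03 to 6.43 at 881 mg/kg. The marker that rose was Epcam, by 0.86 ± 0.14 at 881 mg/kg (adjusted p = 0.000369, and 0.65 without 881 mg/kg replicate 2). Of 6 adrenal cortex markers none was called at any dose by limma, with 2 at an unadjusted p under 0.05 at 881 mg/kg (33.4% of all genes). Without 55 mg/kg replicate 3 or vehicle replicate 5, 1 fell at 881 mg/kg. Their mean level was 5.30 to 5.50 in vehicle and 5.18 to 5.24 at 881 mg/kg. Cyp11b1, the gene of a cortical steroid hydroxylase, read 3.52 to 3.94 on all 20 arrays, and Star, which moves cholesterol into mitochondria, read 6.14 to 6.66. Of 6 intestinal epithelium markers 1 fell at 881 mg/kg, where 6.73% of all genes fell. That count was 0 without any 1 of 8 arrays, 881 mg/kg replicates 1 and 2 among them. The mean level of the list was 6.57 to 6.74 in vehicle and 6.23 to 6.80 at 881 mg/kg. Within it Cdh17 ranged from 6.46 to 11.04 over the 20 arrays and Fabp2 from 6.20 to 7.60.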

How the data were processed

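Liver RNA was measured on 20 Affymetrix arrays, 1 per sample, grouped by the dose in the labels. The authors deposited log2 values for each probe set, made with RMA according to their processing notes in the labels. This method gives all arrays the same distribution after background correction, which removes differences in total RNA and compresses low signals. Sources used here give neither its version nor scan dates. Precision is limited by how many arrays there are. The log2 scale was read from the values.

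Of 31099 probe sets, 57 controls were set aside. By the platform annotation 20826 probe sets had 1 symbol, 436 had several and 9780 had none, and 20758 matched a RefSeq gene ID (GRCr8). Where a gene had more probe sets, the one with the highest mean stood for it, which left 14217 genes. The 6 dose groups were fitted together with limma 3.58.1 (lmFit and eBayes, R 4.3.3), two-sided, with Benjamini-Hochberg adjustment over all genes and a threshold of 0.05. Genes that "rose" or "fell" passed this threshold. Shares over all genes come from the main fit or, at 881 mg/kg, from the fit without 881 mg/kg replicate 2. They were not counted for other fits. Tables and correlations were made in Python 3.11.15 (NumPy 2.4.6, pandas 2.3.3) and figures with matplotlib 3.10.9, and the fit was tested on simulated data. At most 0.0226% of values were identical between any pair of arrays.

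The members and gene lists were chosen with earlier results of these data known. Genes named from a list by their change at 881 mg/kg were picked for its size, so their values at that dose are descriptive. Named are all 5 members, the other measured aldo-keto reductases, up to 4 called genes of each other list by change at 881 mg/kg (of the cell type markers only some of these are printed), and the 5 genes most alike to Akr7a3 and to Akr1b7. Alb, Cyp11b1 and Star lie outside that rule and were named, after their values were seen, as defining markers of their tissues. Tat, Cdh17 and Fabp2 also lie outside it and were named, after their values were seen, for their range over the arrays. Alternatives were median centring, the mean of a gene's probe sets, all probe sets, a filter at log2 of 6, eBayes options, array weights, a beta-actin covariate, a replicate block, fits of 2 groups, and leaving out each array. Promoter windows are RefSeq's (GRCr8); Akr1b1 is not among those used here.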

Additional observations from a re-analysis of the deposited data

How the results depend on the processing

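Calls of Akr7a2 and Akr7a3 at 440 mg/kg and in the trend held under all alternatives run. The number of the 5 genes called at 55 mg/kg was 1, against 0 with the replicate block, 2 when only the 55 mg/kg and vehicle arrays were fitted, and 0 to 1 when single arrays were left out. At 220 mg/kg it was 2, against 1 with eBayes trend and robust options and 0 to 2 when single arrays were left out. At 110 mg/kg it stayed at 0, at 440 mg/kg it was 2 to 3, and in the trend 2 to 3. The signs that reversed belonged to differences that were not called, with reported values between -0.03 and 0.16. Akr1b7 at 110 mg/kg was -0.0064 with array weights and -0.0038 with the beta-actin covariate, and Akr1b8 at 220 mg/kg was 0.0048 after median centring and 0.0141 with array weights. Akr1b8 at 440 mg/kg was -0.121 with the beta-actin covariate, and Akr1b1 at 55 mg/kg was 0.0088 with the mean of its probe sets. With single arrays left out, Akr1b7 at 110 mg/kg ranged from -0.438 to 0.427, Akr1b8 from -0.177 to 0.0766 at 55 mg/kg, from -0.0883 to 0.0642 at 220 mg/kg and from -0.0558 to 0.288 at 440 mg/kg, its trend from -0.0128 to 0.0426, and Akr1b1 at 55 mg/kg from -0.226 to 0.158. The cause was not tested. Replicate numbers are shared between groups, and the sample titles do not say what they stand for. Arrays of the same number tended to be more alike, and the main fit has no block for this. Deviations of same-numbered arrays had a median correlation of 0.14 over 45 pairs (-0.12 to 0.35), those of different numbers one of -0.077 over 90 pairs (-0.28 to 0.22), and 15 of 18 arrays were closest to their own number. With the number as a replicate block Akr7a2 was no longer called at 55 mg/kg (adjusted p = 0.0640), Akr1b1 was called in the trend (-0.10, adjusted p = 0.0433), and no other call of the 5 genes changed. Median centring moved the median of all genes at 881 mg/kg from 0.0007 to 0.046 and the share of calls that rose from 65.4% to 76.8%. Low signals, such as those of Akr1b7 and Akr1b8 in vehicle, are compressed by RMA, so their differences may be understated.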
